A study of Bos taurus with 6 samples.

Results

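The mitochondrial carriers of the SLC25 family are membrane proteins, most of them in the inner mitochondrial membrane, that exchange nucleotides, phosphate, carboxylates, amino acids and cofactors between the cytosol and the matrix. They were followed here in bovine (Bos taurus) blastocysts, the hollow embryo stage with an outer trophectoderm and an inner cell mass, at day 7. The family was taken as the rows of the count table whose gene name begins with SLC25A, which gave the 39 rows described here of 12826 genes. Of these, 38 carry a symbol of the bovine gene table, and the last, SLC25A37_1, is a second row with the name SLC25A37. All 39 passed the filter on low counts.

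The BHB group consisted of 3 libraries from pools of in vitro produced embryos treated with beta-hydroxybutyrate, a ketone body, and the control group of 3 libraries from pools not given it. The embryos came from slaughterhouse material. Neither the concentration and timing of BHB nor the size of a pool is stated in the sources used here. Nothing says that pools came from separate cultures, so a p-value covers only library-to-library spread, which may be technical. In RNA from whole pools, fewer cells of a type and less RNA per cell cannot be told apart.

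Carriers of this family are encoded in the nucleus, made in the cytosol, passed through the outer membrane by the TOM complex and inserted into the inner membrane by the TIM22 complex. ADP/ATP carriers export newly made ATP, the phosphate carrier supplies its substrate, and the aspartate-glutamate and oxoglutarate carriers move reducing equivalents into the matrix as parts of the malate-aspartate shuttle. The blastocyst raises its oxygen use as it forms the blastocoel, and ketone bodies are oxidised in the matrix. Carrier roles given below are those known for the human and mouse proteins.

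Library totals were 6440732 to 7348949 counts with BHB and 7925889 to 8176648 counts in controls. All levels below are CPM, a gene's counts set against its library's total after edgeR's TMM scaling. The trophectoderm list had 6 of 6 genes in the table and summed to 8236 to 13367 CPM with BHB and 10468 to 17054 CPM in controls, nearly all of it from the keratins KRT8 and KRT18. KRT8 averaged 7909 ± 2067 CPM with BHB and 10327 ± 2606 CPM in controls (SD, n = 3 each), and both keratins were lower with BHB in 3 of 3 pairs. TFAP2C averaged 278 ± 16.6 CPM with BHB and 215 ± 55.0 CPM in controls (SD, n = 3 each) and was higher in 3 of 3 pairs. So was CDX2, which was at 4.29 to 9.83 CPM with BHB and 3.71 to 6.81 CPM in controls. Each of these genes overlapped between the groups. None passed in edgeR, with or without pairs, or in DESeq2 with pairs. Of all genes, 15.7% were lower and 14.5% higher with BHB in 3 of 3 pairs. GATA2 and GATA3 of the same list had mixed directions over pairs. The inner cell mass and epiblast list had 3 of 4 genes in the table and summed to 344 to 381 CPM with BHB and 368 to 397 CPM in controls, most of it from POU5F1, while its other genes differed in opposite directions. NANOG was at 30.7, 33.4 and 51.2 CPM with BHB and at 72.4, 60.7 and 73.4 CPM in controls, without overlap (log2 fold change -0.84, SE 0.21). It passed in DESeq2 with libraries compared within pairs (adjusted p = 0.00894) and not in edgeR (adjusted p = 0.999 without pairs and 0.183 with them). KLF17 was at 34.2, 24.2 and 33.0 CPM with BHB and at 15.4, 17.9 and 22.3 CPM in controls, also without overlap (log2 fold change 0.72, SE 0.22), and passed in neither. The primitive endoderm list had 3 of 4 (159 to 215 CPM with BHB and 139 to 214 CPM in controls). Its low gene GATA4 (1.25 ± 0.49 CPM with BHB and 2.52 ± 0.60 CPM in controls) was below all controls in each BHB library. GATA6 averaged 112 ± 17.9 CPM with BHB and 102 ± 13.4 CPM in controls, with overlapping groups, and was higher in 3 of 3 pairs. PDGFRA averaged 82.0 ± 24.2 CPM with BHB and 77.7 ± 32.1 CPM in controls (SD, n = 3 each), also overlapping, with mixed direction over pairs. The part of these markers in the carrier values below was not tested. Of the cumulus and granulosa list, FSHR, STAR and CYP19A1 summed to 28.2 to 35.3 CPM with BHB and 29.6 to 37.5 CPM in controls. Of oocyte genes ZP3 alone was in the table, at 0.943 to 2.77 CPM with BHB and 0.401 to 2.65 CPM in controls, and of blood and immune genes CD68 alone, at 2.42 to 2.77 CPM with BHB and 1.33 to 2.27 CPM in controls. The 13 protein-coding genes of the mitochondrial genome took 8.01% ± 0.12 of BHB counts and 8.75% ± 0.62 of control counts (SD, n = 3 each), without overlap between the groups. Libraries fall into 3 pairs of a BHB and a control library, taken from the model behind the authors' deposited table and not from the labels.

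No SLC25A gene passed the test between BHB and control blastocysts (edgeR's quasi-likelihood test with Benjamini-Hochberg adjustment over 12732 genes, adjusted p = 0.999 for each of the 39). Of all genes tested, 0 passed (0%), and 347 (2.73%) had an unadjusted p under 0.05, against 0 of the 39 carriers. A DESeq2 Wald test called 6 of all genes and 0 carriers. When libraries were compared within pairs, DESeq2 called 35 genes (0.333% of those with an adjusted p) and edgeR 0 genes (0%), and neither called a carrier. SLC25A2, SLC25A23, SLC25A34 and SLC25A37 had no adjusted p in that DESeq2 fit and could not be called by it. An unadjusted p under 0.05 in both fits was found for 2 of 39 carriers, SLC25A30 and SLC25A5, where edgeR had 8.2% of all genes and DESeq2 4.67%.

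As a family the carriers were spread about 0. The log2 fold change of BHB over control was positive in 21 and negative in 18, with a median of 0.01, beside a median of -0.005 over all tested genes, of which 49.1% were positive. Scaling by library size alone made it 25 positive carriers with a median of 0.077, and moved the median of all tested genes to 0.061. The median size of a carrier's change, regardless of sign, was 0.17 on the log2 scale, and that of all tested genes 0.16. The coefficient of variation between libraries that edgeR estimated was 0.223 for the median carrier and 0.228 for the median gene. Standard errors of the 39 log2 fold changes ran from 0.13 to 0.73 with a median of 0.24. A difference of about that size could not be told from the spread between libraries, and far larger ones did not pass either. NANOG, at -0.84 (SE 0.21), had an adjusted p = 0.999 in the same edgeR quasi-likelihood test. The absence of calls therefore does not show that carriers were unchanged. Groups did not overlap in 2 of 39 carriers (5.13%), SLC25A4 (higher with BHB) and SLC25A17 (lower), beside 7.84% of all genes (4.06% higher and 3.78% lower). The difference had 1 direction in 3 of 3 pairs in 15 of 39 (38.5%), 7 higher and 8 lower with BHB, beside 30.3% of all genes (14.5% higher and 15.7% lower).

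**Figure D1:**
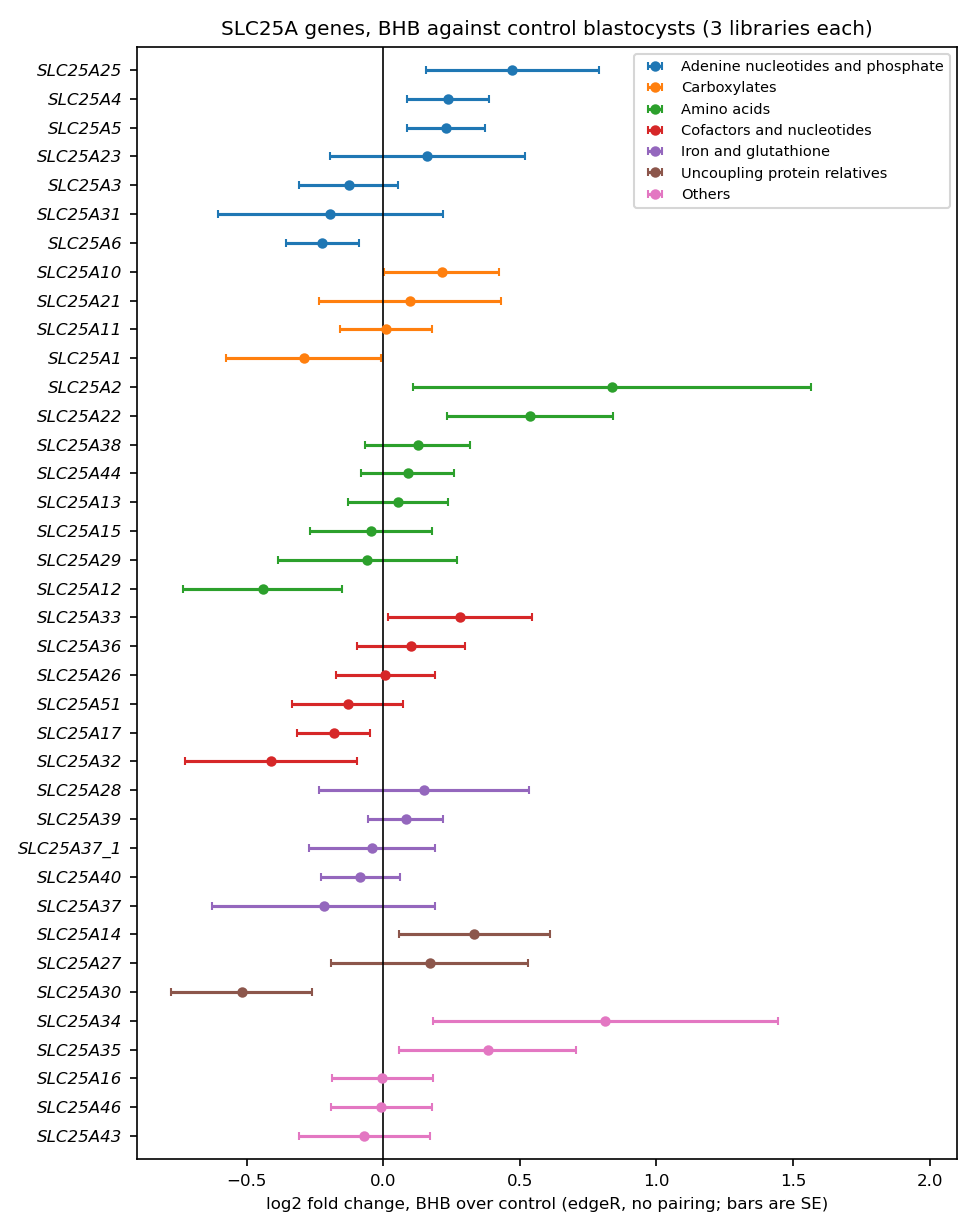
Log2 fold change of BHB over control (x axis) for the 38 SLC25A rows shown (y axis), grouped by role. Points are edgeR estimates without pairing, bars are SE, and the 3 BHB libraries are set against 3 controls; positive and negative values are mixed in every role, and SLC25A2 and SLC25A34, with few counts, have the longest bars.

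Adenine nucleotide and phosphate carriers held 7 of the rows, 4 with a positive and 3 with a negative log2 fold change (median 0.16). None passed the test. SLC25A5, an ADP/ATP carrier known from dividing cells, was at 1304, 1201 and 1228 CPM in BHB libraries 1 to 3, against 1247, 1010.2 and 924 CPM in control libraries 1 to 3. Control library 1 lay within the BHB range, and the other controls lay below it. Its log2 fold change was 0.23 (SE 0.14), with differences of 0.06, 0.25 and 0.41 in pairs 1 to 3. Leaving out control library 1 gave 0.37, and leaving out control library 3 gave 0.14.

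SLC25A4, the ADP/ATP carrier best known from heart and muscle, was at 53.1, 46.9 and 46.8 CPM with BHB, against 45.7, 40.2 and 38.8 CPM in controls. Each BHB library lay above each control, the closest of them by a small margin. The log2 fold change was 0.24 (SE 0.15), and the within-pair differences were alike at 0.22, 0.22 and 0.27. SLC25A6, a further ADP/ATP carrier, was on the other side. It was at 136, 149.7 and 137 CPM with BHB and at 147, 184 and 162 CPM in controls, where BHB library 2 lay within the control range. Its log2 fold change was -0.22 (SE 0.13), and it was lower with BHB in 3 of 3 pairs, by -0.11, -0.30 and -0.24. Without control library 2 the log2 fold change was -0.13.

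A ratio of counts within a library does not depend on how libraries are scaled. The number of SLC25A5 counts per SLC25A6 count was 9.55, 8.02 and 8.98 with BHB and 8.46, 5.48 and 5.71 in controls. That of SLC25A4 per SLC25A6 was 0.389, 0.314 and 0.342 with BHB and 0.310, 0.218 and 0.239 in controls. The second ratio was higher in each BHB library than in each control, but by a small margin between BHB library 2 (0.314) and control library 1 (0.310). In the first ratio control library 1 overlapped. SLC25A5 counts per SLC25A4 count were 25.5 ± 0.84 with BHB and 25.4 ± 1.74 in controls (SD, n = 3 each). These ratios were chosen after the values were seen and have no test, and how often ratios of other gene pairs do not overlap was not counted. They compare changes and not levels, as counts are not corrected for transcript length. ADP/ATP carrier genes have processed pseudogenes, so the counting could split their reads and their levels are uncertain. The share of counts from the mitochondrial genome, lower in each BHB library, differed between the groups as well, and its part in these ratios was not tested.

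**Figure D2:**
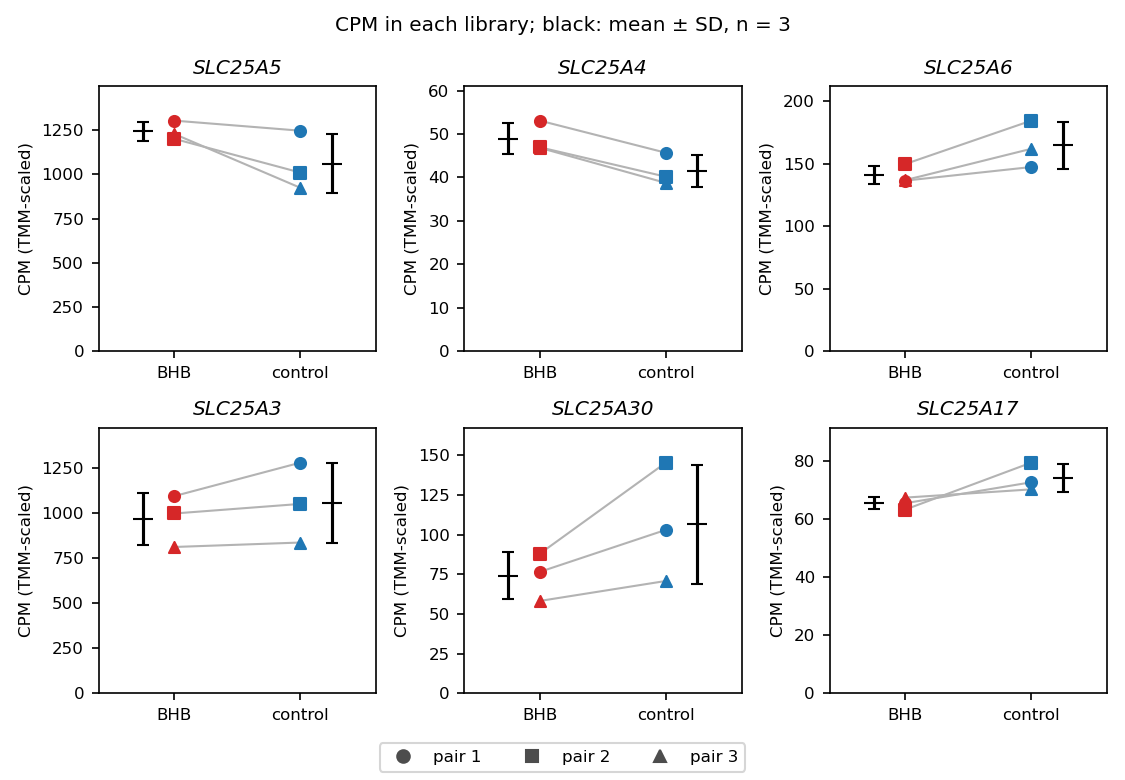
CPM on TMM-scaled library sizes (y axis, from 0) in each BHB and control library for 6 carriers, with grey lines joining libraries of a pair and black marks for mean ± SD (n = 3). SLC25A5 and SLC25A4 lie higher and SLC25A6, SLC25A3, SLC25A30 and SLC25A17 lower at the BHB end of each line. Within each group, pair 1 is the highest in SLC25A3 and pair 2 in SLC25A30.

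SLC25A3, the phosphate carrier, was at 1096, 999 and 813 CPM with BHB and at 1282, 1052 and 838 CPM in controls. Pair 1 was highest and pair 3 lowest in both groups, and the groups overlapped. The log2 fold change was -0.13 (SE 0.18), with -0.23, -0.07 and -0.04 in pairs 1 to 3, and without control library 1 it was 0.039.

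Carriers that exchange ATP-magnesium for phosphate under control of calcium were measured with few counts. SLC25A25 was at 4.58, 6.65 and 6.42 CPM with BHB and at 3.61, 4.38 and 4.70 CPM in controls (log2 fold change 0.47, SE 0.32). BHB library 1 lay within the control range, and the difference was positive in 3 of 3 pairs. SLC25A23 averaged 3.30 ± 0.31 CPM with BHB and 2.95 ± 0.59 CPM in controls (SD, n = 3 each). SLC25A31, an ADP/ATP carrier of male germ cells, averaged 3.50 ± 0.35 CPM with BHB and 3.98 ± 1.94 CPM in controls (SD, n = 3 each).

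Carriers of carboxylates showed no shared direction. In 3 of 4 the log2 fold change was positive (median 0.05), and none had 1 direction in 3 of 3 pairs. SLC25A11, the oxoglutarate carrier of the malate-aspartate shuttle, was at 54.2, 50.8 and 40.7 CPM with BHB and at 54.1, 46.7 and 43.9 CPM in controls, and the groups overlapped almost fully (log2 fold change 0.01, SE 0.17). SLC25A1, which exports citrate for lipid synthesis, averaged 15.4 ± 1.63 CPM with BHB and 18.9 ± 7.36 CPM in controls, with the highest value, 27.1 CPM, in control library 1. SLC25A10, the dicarboxylate carrier, averaged 43.8 ± 2.63 CPM with BHB and 37.7 ± 9.92 CPM in controls. SLC25A21, a carrier of oxodicarboxylates, averaged 21.9 ± 11.5 CPM with BHB and 20.5 ± 2.58 CPM in controls (SD, n = 3 each). Its within-pair differences of 0.85, -0.87 and -0.05 had opposite signs in pairs 1 and 2.

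Amino acid carriers held 8 rows, 5 positive and 3 negative (median 0.07). SLC25A12, the aspartate-glutamate carrier aralar, was at 12.1, 6.65 and 7.29 CPM with BHB, against 12.3, 12.7 and 10.4 CPM in controls. BHB libraries 2 and 3 lay below all controls and BHB library 1 within them (log2 fold change -0.44, SE 0.29). The value was -0.76 without BHB library 1 and -0.28 without BHB library 2. Its paralog citrin, SLC25A13, averaged 26.7 ± 3.71 CPM with BHB and 25.7 ± 2.56 CPM in controls (SD, n = 3 each). SLC25A22, a glutamate carrier, was at 9.97, 7.06 and 7.88 CPM with BHB and at 4.81, 7.42 and 4.93 CPM in controls (log2 fold change 0.54, SE 0.30). Control library 2 lay within the BHB range, and pair 2 had no positive difference (1.01, -0.07 and 0.65 in pairs 1 to 3).

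SLC25A44, a carrier of branched-chain amino acids, was at 40.0, 46.3 and 37.5 CPM with BHB and at 42.2, 40.8 and 33.3 CPM in controls, with overlapping groups (log2 fold change 0.09, SE 0.17). SLC25A15, which carries ornithine for the urea cycle, averaged 30.5 ± 6.57 CPM with BHB and 31.5 ± 6.30 CPM in controls. The glycine carrier SLC25A38, needed for haem synthesis, averaged 18.1 ± 1.54 CPM with BHB and 16.6 ± 1.43 CPM in controls, and the basic amino acid carrier SLC25A29 averaged 5.68 ± 1.52 CPM with BHB and 5.92 ± 1.07 CPM in controls (SD, n = 3 each). SLC25A2, a second ornithine carrier, had 32 counts over the BHB libraries and 20 over the controls, with a log2 fold change of 0.84 (SE 0.73).

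Carriers of cofactors and nucleotides were 3 positive and 4 negative (median -0.13). SLC25A17, which carries coenzyme A and related cofactors into peroxisomes, was at 65.3, 63.2 and 67.3 CPM with BHB and at 72.5, 79.3 and 70.1 CPM in controls. All BHB libraries lay below all controls, with a log2 fold change of -0.18 (SE 0.13). SLC25A32, which brings folate and flavin adenine dinucleotide into the matrix, was at 6.33, 5.12 and 8.02 CPM with BHB and at 10.8, 8.88 and 6.22 CPM in controls, with the reverse order in pair 3 (log2 fold change -0.41, SE 0.32, and -0.21 without control library 1 or -0.26 without BHB library 2).

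Both pyrimidine nucleotide carriers had a positive difference in 3 of 3 pairs, as did 14.5% of all genes, but some of these differences were close to 0. In pairs 1 to 3 they were 0.26, 0.0095 and 0.06 for SLC25A36 and 0.52, 0.41 and 0.014 for SLC25A33. SLC25A36 was at 81.8, 77.1 and 108 CPM with BHB and at 68.4, 76.6 and 104 CPM in controls (log2 fold change 0.10, SE 0.20), with pair 3 high in both groups. Its log2 fold change was -0.062 without BHB library 3 and -0.017 without control library 1. SLC25A33 averaged 29.4 ± 5.63 CPM with BHB and 24.2 ± 8.21 CPM in controls. SLC25A51, the mitochondrial NAD carrier, averaged 36.7 ± 6.77 CPM with BHB and 40.1 ± 7.84 CPM in controls, with differences of -0.14, -0.11 and -0.13 in pairs 1 to 3. SLC25A26, which carries S-adenosylmethionine, averaged 29.5 ± 3.41 CPM with BHB and 29.3 ± 3.69 CPM in controls (SD, n = 3 each).

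Iron and glutathione carriers held 5 rows (2 positive, 3 negative, median -0.04). SLC25A39, the glutathione importer, was at 77.1, 77.3 and 65.7 CPM with BHB and at 71.1, 68.4 and 68.3 CPM in controls, with BHB libraries on both sides of the controls (log2 fold change 0.08, SE 0.14, and 0.045 to 0.16 without 1 BHB library). Its paralog SLC25A40 averaged 53.9 ± 3.34 CPM with BHB and 57.1 ± 4.57 CPM in controls. The mitoferrins import iron for haem and iron-sulfur clusters. Mitoferrin 1 had the rows SLC25A37 (3.24 ± 1.06 CPM with BHB and 3.78 ± 1.26 CPM in controls) and SLC25A37_1 (24.1 ± 5.24 CPM with BHB and 24.9 ± 5.55 CPM in controls). Reads could be split between them, so neither level is certain. Mitoferrin 2, SLC25A28, averaged 4.62 ± 1.72 CPM with BHB and 4.17 ± 1.09 CPM in controls (SD, n = 3 each).

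The relatives of uncoupling proteins held the carrier with the smallest p of the family. SLC25A30, also called kidney mitochondrial carrier protein, was at 76.5, 87.9 and 58.2 CPM with BHB, against 103, 145 and 70.8 CPM in controls. BHB was lower in 3 of 3 pairs, by -0.43, -0.72 and -0.28, but pair 3 was low and pair 2 high in both groups, so the groups overlapped. Without pairing the log2 fold change was -0.52 (SE 0.26, unadjusted p = 0.0739 by edgeR's quasi-likelihood test), and -0.23 without control library 2. With the replicate block it was -0.48, with an unadjusted p = 0.00345 and an adjusted p = 0.371 in edgeR and an adjusted p = 0.283 in DESeq2.

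SLC25A14, another relative of the uncoupling proteins, was at 16.4, 14.8 and 20.7 CPM with BHB and at 15.6, 8.88 and 16.7 CPM in controls (log2 fold change 0.33, SE 0.28). It was on the positive side in 3 of 3 pairs, and control library 2 was the 1 low value. Without that library the log2 fold change was 0.10, without BHB library 3 it was 0.19, and leaving out others gave up to 0.50. SLC25A27, known from the brain, averaged 7.63 ± 3.69 CPM with BHB and 6.77 ± 0.38 CPM in controls (SD, n = 3 each).

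Among the other members, SLC25A46, a protein of the outer membrane that acts in mitochondrial fusion and fission, averaged 43.3 ± 3.13 CPM with BHB and 43.5 ± 8.94 CPM in controls. SLC25A16 was at 58.9, 46.7 and 61.1 CPM with BHB and at 54.0, 46.3 and 66.7 CPM in controls, with pair 2 lowest in both groups (log2 fold change -0.003, SE 0.18). SLC25A43 averaged 16.5 ± 3.03 CPM with BHB and 17.4 ± 3.75 CPM in controls, and SLC25A35 5.18 ± 0.79 CPM with BHB and 3.98 ± 0.74 CPM in controls (SD, n = 3 each). SLC25A34 was at 0.808, 2.08 and 1.46 CPM with BHB and at 1.47, 0.530 and 0.470 CPM in controls. It rests on 31 counts over the BHB libraries and 19 over the controls (log2 fold change 0.81, SE 0.63), and leaving out 1 library moved the value between 0.46 (without BHB library 2) and 1.51 (without control library 1).

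**Figure D3:**
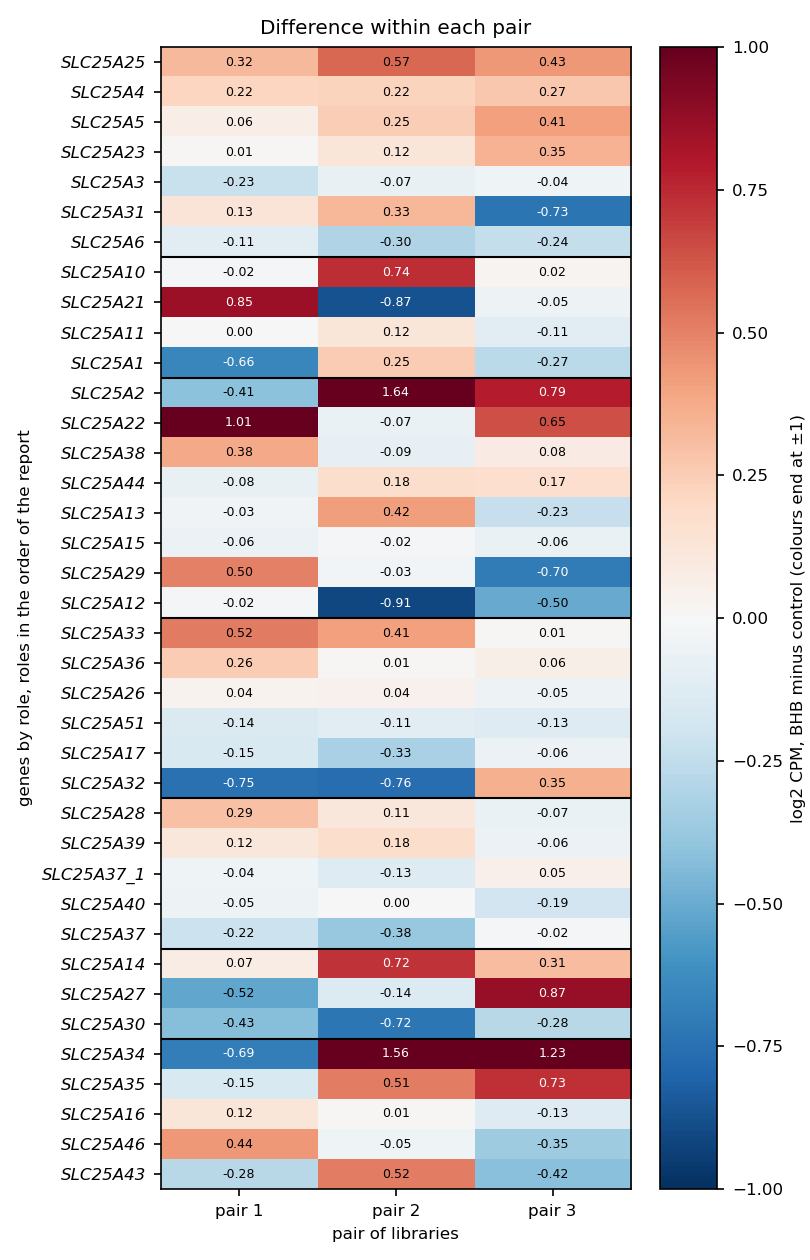
Difference in log2 CPM (BHB minus control, prior count 2) within each pair of libraries (columns) for the 38 SLC25A rows shown, grouped by role, with the value printed and colours ending at ±1. In 15 rows the 3 pairs have 1 sign, as in 30.3% of all genes. Among them are SLC25A4, SLC25A5 and SLC25A25 on the positive side and SLC25A30, SLC25A6 and SLC25A17 on the negative side. Some of the 15 hold a value close to 0, such as SLC25A36 in pair 2 (0.0095) and SLC25A12 in pair 1 (-0.019).

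Differences between pairs of libraries, whatever the treatment, were tested with treatment in the model. SLC25A30 was the 1 carrier of 39 that passed (edgeR's quasi-likelihood test, adjusted p = 0.0391), beside 524 of all genes (4.12%). Within each group, the library of pair 2 was highest and that of pair 3 lowest for it. Leaving out control library 1, 2 or 3 left 0 carriers past the threshold, and without BHB library 1 SLC25A3 passed as well (adjusted p = 0.0339), as it did in DESeq2's likelihood ratio test (adjusted p = 0.0208). At an unadjusted p under 0.05 there were 8 of 39 carriers (20.5%), beside 20.6% of all genes. By the authors' deposited table, an adjusted p under 0.05 was reached by 2 of 39 carriers (5.13%) and 5.04% of all genes, the carriers being SLC25A30 (adjusted p = 0.00025) and SLC25A3 (adjusted p = 0.0256). The p-values of the authors' deposited table test pair and treatment together, so they do not give the effect of BHB alone.

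Partner genes of the carriers were read from 5 lists that had 44 genes in the table. None passed between BHB and control. Groups did not overlap in 1 of the 44 on the higher side with BHB and in 3 on the lower side, beside 4.06% and 3.78% of all genes. Of the import machinery that brings carriers into the inner membrane, 13 of 16 genes had a positive log2 fold change (median 0.11, against -0.005 over all genes), beside 49.1% of all genes with a positive value. Of the 16, 4 (25%) were higher with BHB in 3 of 3 pairs, beside 14.5% of all genes. TOMM40, the channel of the outer membrane, was at 55.1, 75.6 and 50.8 CPM with BHB and at 34.7, 39.9 and 57.4 CPM in controls (log2 fold change 0.46, SE 0.23), with the opposite sign in pair 3. Its value was 0.27 without BHB library 2 and 0.70 without control library 3. TIMM29, a subunit of the TIM22 complex, averaged 13.4 ± 1.76 CPM with BHB and 9.62 ± 4.91 CPM in controls (SD, n = 3 each; log2 fold change 0.47, SE 0.36), and its value was 0.18 without control library 1 and 0.94 without control library 3.

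Enzymes of the malate-aspartate, glycerol phosphate and citrate shuttles were negative in 6 of 7 (median -0.11), beside 49.1% of all genes with a positive value. Of the 7, 4 (57.1%) were lower with BHB in 3 of 3 pairs, beside 15.7% of all genes. In 1 of the 7 BHB was higher in 3 of 3 pairs, beside 14.5% of all genes. The negative values ran from -0.27 to -0.003. MDH2, the matrix malate dehydrogenase, averaged 386 ± 7.41 CPM with BHB and 429 ± 23.7 CPM in controls, with each BHB library below each control (log2 fold change -0.15, SE 0.12). GOT1, the cytosolic aspartate aminotransferase, was the exception at 82.0 ± 13.2 CPM with BHB and 68.5 ± 4.56 CPM in controls (SD, n = 3 each; log2 fold change 0.26, SE 0.16).

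Other transporters of the inner membrane were 6 positive and 9 negative (median -0.05). ABCB10, an exporter needed for haem synthesis, had a log2 fold change of -0.38 (SE 0.23), negative in 3 of 3 pairs. It averaged 10.5 ± 0.66 CPM with BHB and 13.6 ± 2.06 CPM in controls (SD, n = 3 each), without overlap. Of the voltage-dependent anion channels of the outer membrane, VDAC2 averaged 719.6 ± 92.0 CPM with BHB and 829.7 ± 103 CPM in controls (SD, n = 3 each; log2 fold change -0.21, SE 0.15, and -0.12 without BHB library 3), and the log2 fold change of VDAC3 was 0.07 (SE 0.13), running from 0.019 to 0.13 without 1 library. The relatives MTCH1 and MTCH2, carrier-like proteins of the outer membrane, had log2 fold changes of -0.09 (SE 0.21) and -0.08 (SE 0.18). Between pairs of libraries, 3 of 44 partner genes passed by edgeR's quasi-likelihood test, beside 4.12% of all genes: the uncoupling protein UCP2 (adjusted p = 0.0336), the channel VDAC1 (adjusted p = 0.0134) and the calcium uniporter pore MCU (adjusted p = 0.0491).

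**Figure D4:**
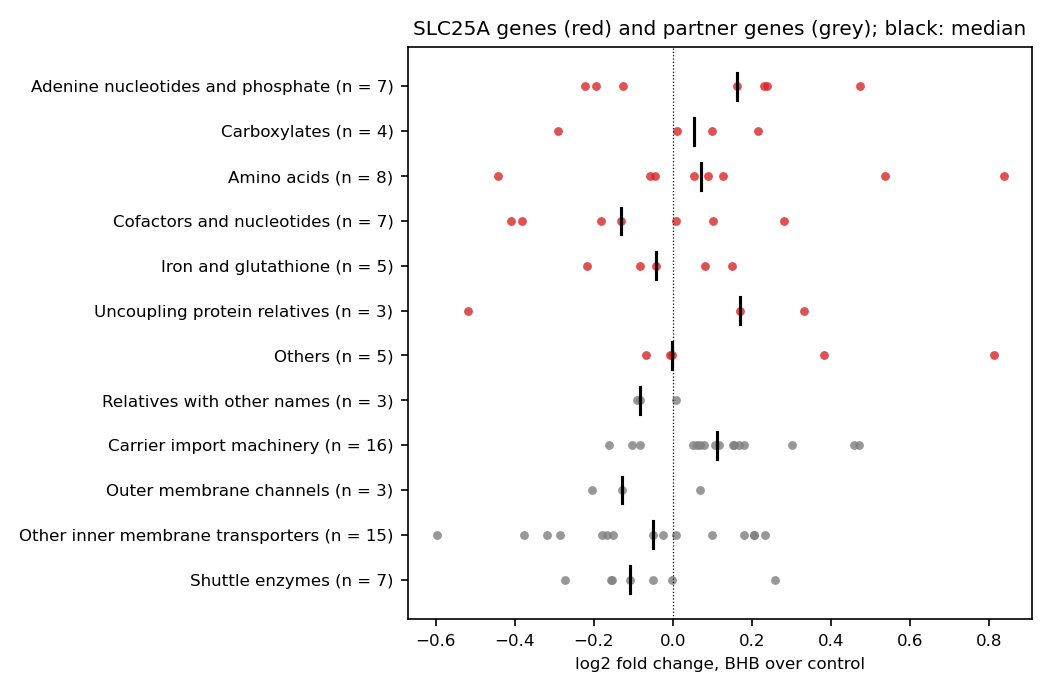
Log2 fold change of BHB over control (x axis, edgeR without pairing) for each SLC25A row (red, by role) and each partner gene (grey, by list), with black lines at group medians. 13 of 16 import genes lie right of 0 and 6 of 7 shuttle enzymes left of it, and no point passed the test over all genes. Of all tested genes, 49.1% had a positive value.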

How the data were processed

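Polyadenylated RNA was sequenced as paired ends in 1 lane from stranded libraries, per the labels' protocols. The authors deposited raw counts per gene and a table of their own results with a mean count (a signal scale), a log2 fold change and its error, a test score and p-values; the sign of the log2 column against the counts makes it control over BHB. STAR, featureCounts and DESeq2 were used per the submitters' processing notes; of versions, build, annotation and strand setting, none was given in the sources used here. Gene symbols were checked against the ARS-UCD2.0 gene table, and coordinates and lengths were not used.

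Counts were analysed with edgeR 4.0.16 in R 4.3.3 (TMM, filterByExpr, quasi-likelihood F test, no covariate, Benjamini-Hochberg adjustment at 0.05 over all tested genes), which kept 12732 of 12826 genes. DESeq2 1.42.0 and limma 3.58.1 (voom) were alternatives. The smallest total of any gene is 38 counts, and family genes outside the table are not analysed here. Some members and partners are not reported here by name, and counts and medians over the table's 39 rows and the lists include those in it. SE is the size of the log2 fold change divided by the root of F. Scripts were tested on simulated data.

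Pairs come from the authors' deposited p-values. DESeq2's likelihood ratio test of pair and treatment against neither gave those p-values within 1e-06 for 99.98% of genes when libraries of the same number were paired, and for at most 0.398% otherwise. Deviations from the group means correlated at 0.46, 0.32 and 0.33 within pairs. The replicate block adds the pair to the model.

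Members, roles, partner and marker lists were chosen with earlier results of these data known. Values in every library and fold changes are given for carriers called in any of 3 fits, the 12 with the smallest p, the highest of each role and SLC25A3, which was added after its values were seen; of partners, the 2 with the smallest p in each list, and, named after their values were seen, the 3 that passed between pairs.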

Additional observations from a re-analysis of the deposited data

How the results depend on the processing

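No alternative called an SLC25A gene between BHB and control: another scaling, no filter or a filter of 1 CPM or 5 CPM (the last added after seeing the data), DESeq2, limma-voom, the replicate block, or leaving out any library or pair. Over all genes the count of 0 became 6 with DESeq2's Wald test, 35 with the replicate block in DESeq2, 0 with the replicate block in edgeR, 0 to 1 without 1 library (1 without BHB library 2), and 4, 16 and 4 with the replicate block in edgeR without pair 1, 2 and 3; the cause was not tested. The carriers' median log2 fold change ran from -0.05 to 0.08, and 18 to 26 of 39 were positive without 1 library (16 of 32 under the 5 CPM filter). By library size alone that median was 0.077, beside 0.061 over all tested genes. The replicate block changed no call of a carrier. Between pairs, 300 (without control library 1) to 1076 genes (without BHB library 3) and 0 (without any 1 control) to 2 carriers (without BHB library 1) passed without 1 library, and 2 carriers passed by DESeq2's likelihood ratio test. Of the named genes' fold changes under these alternatives, 482 kept their sign and 21, all of genes close to 0, did not. SLC25A16 (-0.003) was 0.058 by library size alone and 0.0034 with the replicate block in edgeR. Without 1 library the log2 fold changes ran from -0.12 to 0.15 for SLC25A16, -0.075 to 0.12 for SLC25A11, -0.062 to 0.29 for SLC25A36, -0.27 to 0.039 for SLC25A3, -0.0094 to 0.16 for SLC25A44, -0.26 to 0.13 for MTCH1 and -0.24 to 0.076 for MTCH2. With the replicate block and without 1 pair, SLC25A16 ran from -0.06 to 0.080 (0.00053 without pair 2), SLC25A11 from -0.052 to 0.07, MTCH1 from -0.22 to 0.059, MTCH2 from -0.12 to 0.032 and VDAC3 from -0.0097 to 0.13. SLC25A2 and SLC25A34, with under 100 counts each over all libraries, are limited by depth.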

Other observations

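The ADP/ATP carrier SLC25A5 and the phosphate carrier SLC25A3, which together supply ATP synthase with its substrates, were also compared as a ratio within a library. SLC25A5 counts per SLC25A3 count were 1.19, 1.20 and 1.51 in BHB libraries 1 to 3 and 0.973, 0.960 and 1.10 in control libraries 1 to 3. Each BHB library lay above each control, and the ratio averaged 1.30 ± 0.18 with BHB and 1.01 ± 0.08 in controls (SD, n = 3 each). The ratio was picked after its values were seen and was not tested. How often ratios of other gene pairs do not overlap was not counted, so the separation has no baseline. Both genes together gave 65.4% of all counts of the family, whose summed level was 3335 ± 208 CPM with BHB and 3279 ± 382 CPM in controls (SD, n = 3 each). Without them the other 37 rows summed to 1155, 1109 and 1100.2 CPM with BHB and to 1150.2, 1177 and 1157 CPM in controls.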
